A study of Mus musculus with 141 samples.

Results

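The livers described here were chosen by the transcripts of 2 genes of lipid handling, Cidec and Cd36. Each liver of the study received a score, the mean of log2(CPM + 1) of both genes, where CPM is the expected count of a gene per 1000000 counts of its library without the ribosomal RNA gene Rn45s. The 16 livers with the highest score formed the high group and the 16 with the lowest score the low group, out of 47 livers and 141 libraries in all. The other 15 livers lay between the groups. The score had been proposed as a proxy of stored liver fat, and neither histology nor a lipid measurement was used here. Because the groups were cut from Cidec and Cd36, the liver values of these genes are given as a description, with no test.

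The libraries were RNA-seq of whole liver, kidney and lung from 47 Collaborative Cross strains, inbred mice that each carry a mosaic of several founder genomes. Every strain was represented by 1 adult male of 8 to 12 weeks, so both groups held 16 mice of 16 different strains. A p-value rests on the spread between these mice, in which strain, single mouse and library cannot be told apart. All mice ate an NTP 2000 wafer diet and sat in mesh chambers of clear air for 6 hours a day on weekdays over a period of weeks. The labels name no fat-rich diet, test compound or engineered allele, and no treatment was assigned that would set the groups apart. The study's methods name sequencing batches, but which library belonged to which batch was not used here, so a part of the batches in any value was not tested.

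Fat in a hepatocyte is kept as triglyceride in lipid droplets, whose surface is coated by proteins of the perilipin and CIDE families. CIDEC sits where droplets touch and helps small droplets fuse into large ones, while CD36 is a membrane receptor that takes up long-chain fatty acids. Both genes are known targets of the nuclear receptor PPAR-gamma, and their transcripts are known to be scarce in lean liver and abundant in fatty liver.

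Cidec had no count in any of the 47 livers, so the score rested on Cd36 alone. The liver with the highest score, of strain CC035, held 6 counts of Cd36, and no liver held more than 9. In the high group Cd36 ran from 0.421 to 1.17 CPM with a median of 0.638, resting on 2 to 9 counts in each library (median 4.5). In the low group 13 livers had 0 counts and 3 had 1 count, the highest of them at 0.135 CPM. Over all livers 115 counts of Cd36 were found, 77 of them in the high group and 3 in the low group. Cidec lies on the minus strand of chromosome 6 (6:113374628-113385754) and Cd36 on the minus strand of chromosome 5 (5:17287508-17394777), both in the mouse build NCBIM37 with GENCODE vM1 genes.

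The data therefore went against the label of the high group as livers with abundant Cidec. The groups are called high and low below, after their rank by the CPM of Cd36. These names mark ranks and not separate states of Cd36. Cd36 reached at most 1.17 CPM in liver, against a median of 7.02 CPM over the kidneys. Raw counts followed another order: CC010, with 7 counts, lay between the groups, and CC040, with 2 counts, in the high group. The edge of the high group ran between strain CC040, at 0.421 CPM of Cd36 and a score of 0.254, and strain CC030 just outside it, at 0.385 CPM and 0.235. The edge of the low group ran between strain CC007 just inside it, at 0.135 CPM and a score of 0.0916, and strain CC019 just outside it, at 0.142 CPM and 0.0961. At both edges the counting intervals of the neighbouring livers overlapped.

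**Figure D1:**
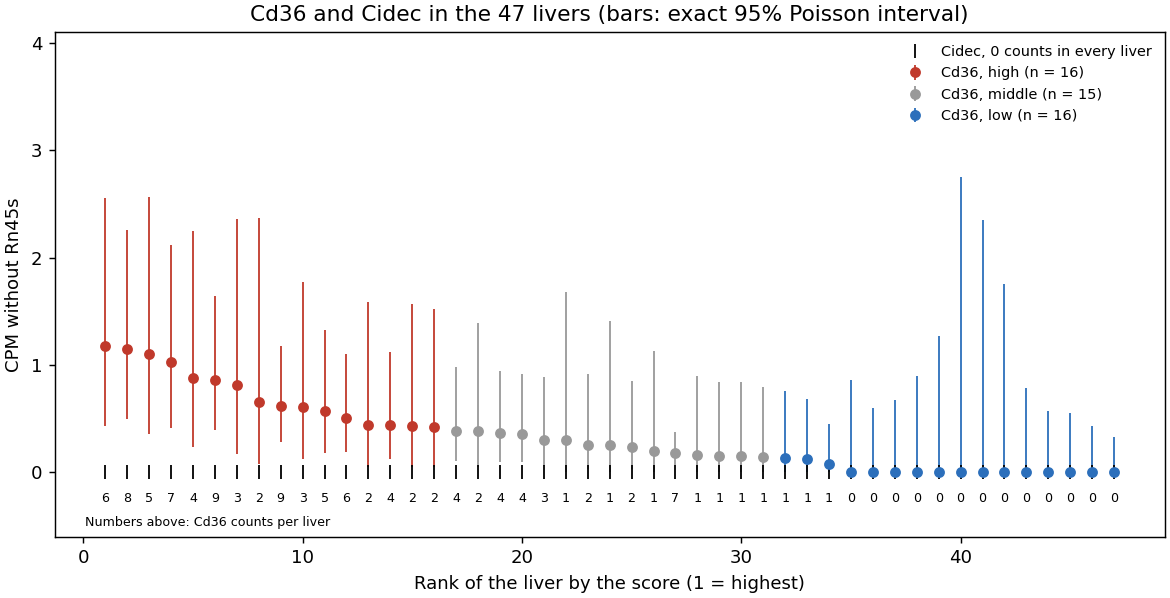
Cd36 in CPM (vertical axis) in each of the 47 livers, ranked by the score (horizontal axis), with the exact 95% Poisson interval of its count as a bar and the count printed below; black ticks mark Cidec, at 0 counts in every liver. The 16 high livers held 2 to 9 counts of Cd36 and the 16 low livers 0 or 1, and the bars of most high and low livers overlap.

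The counts behind these values were small, and their errors are given as a description. Of the 256 pairs of a high and a low liver, the exact 95% Poisson intervals of Cd36 did not overlap in 7, which involved 5 high and 3 low livers. A count of 0 allows up to 3 counts, and in the 13 livers at 0 this limit lay between 0.268 and 2.24 CPM, with a median of 0.642. In 11 of these 13 livers the limit was above the lowest value of the high group. For Cidec the same limit ran from 0.0774 to 2.24 CPM over the 47 livers. Intervals and limits cover counting error only.

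Cidec and Cd36 belong to the genes for which the deposited files name several transcripts, 2 for Cidec and 5 for Cd36, and by the study's methods reads without a unique alignment were not counted. Across the liver libraries, the 18310 genes with 1 named transcript had a median level of 0.583 CPM, and the 6112 genes with more than 1 had a median of 0.145 CPM. Of the first, 6.08% averaged 100 CPM or more, and of the second 0.589%. In GENCODE vM1, 1.46% to 7.05% of the stretches of 50 bases in the 4 annotated coding transcripts of Cd36 occur in a single transcript, against 100% in Plin4, Fabp4 and Fasn, which have 1 coding transcript each. For Cidec the share was 1.63% to 4.76% in 3 transcripts and 30.3% in a short one of 376 bases. Plin2 has 4 transcripts there but 1 in the files, and its median over the 47 livers was 357 CPM. Its share was 7.77% to 16.6% in all but the longest transcript, where it was higher. Reads were counted on RefSeq transcripts, so the shares in GENCODE vM1 need not hold for the counted ones. With the same counting, Cd36 reached 193 counts in a kidney library. Pparg, the gene of PPAR-gamma, has 4 transcripts in the files and was at 0 counts in 26 of 47 livers. The part of the counting in the low values of Cidec and Cd36 was not tested.

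**Figure D2:**
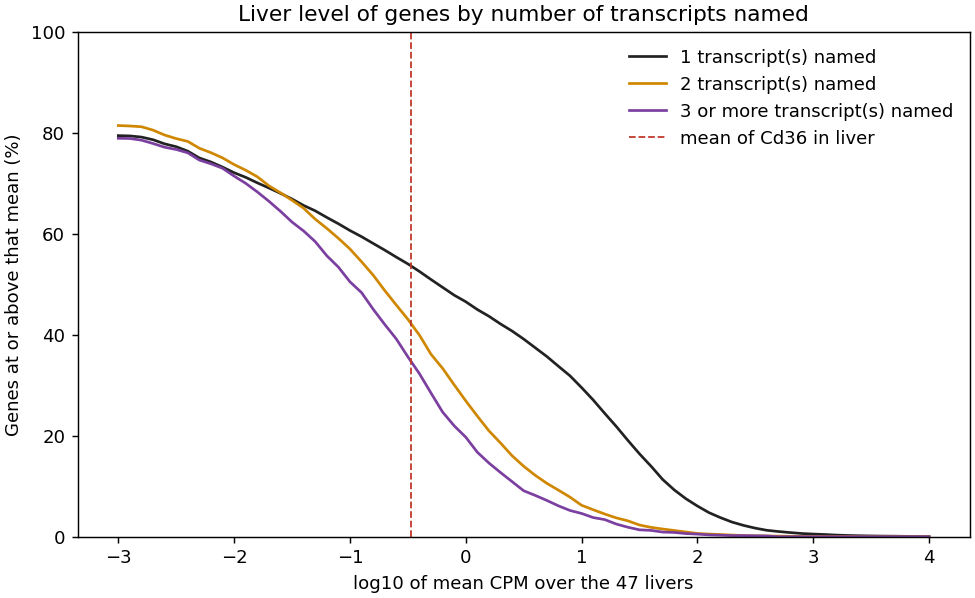
Share of genes, in percent (vertical axis), whose mean over the 47 livers reaches at least the level on the horizontal axis (log10 of CPM), for genes with 1, 2 and 3 or more transcripts named in the files. Genes with several named transcripts lie at lower levels, and the dashed line marks the mean of Cd36 in liver, 0.337 CPM.

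Library depth without Rn45s ran from 3053771 to 14498126 counts in the high livers (median 5024103) and from 1341632 to 12372969 in the low livers (median 5806568). The low livers of CC036, CC033, CC039 and CC029, all at 0 counts of Cd36, held 1341632 to 2911193 counts, fewer than any high liver. Rn45s took a median of 39.8% of the counts in the high and 20.6% in the low livers, with means of 33.4% and 29.96% (two-sided permutation test, p = 0.617). The summed level of 8 hepatocyte markers, Alb among them, had medians of 119399 and 118433 CPM in the high and low livers. In whole tissue, fewer cells of a type and less RNA per cell cannot be told apart. Single livers stood apart by markers of other cells. Strain CC006 of the high group had 238 CPM summed over 9 adipocyte markers, against 24.4 in the next high liver and at most 14.6 in the low livers. Most of that sum was Fabp4, a gene of fat cells and macrophages, at 202 CPM. Its Adipoq, the fat cell hormone adiponectin, was at 24.02 CPM. Of the defining fat cell markers Plin1, with 2 transcripts named in the files, was at 0 in every liver. Strain CC016 of the high group had 2198 CPM over 20 macrophage markers, with the next high liver at 1242, and strain CC068 of the low group had 2489 CPM over 7 markers of exocrine pancreas, with the next low liver at 551 and at most 234 in the high livers.

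No gene passed the test for a difference between livers ranked high and low by Cd36. The 10151 genes tested exceeded 1 CPM in no fewer than 30% of the 47 livers, and 0 (0%) had a q of at most 0.1 by limma-voom, where q is the Benjamini-Hochberg adjusted p. At an unadjusted p under 0.05 stood 695 genes (6.85%), 294 of them higher (2.9%) and 401 lower (3.95%) in the high group. edgeR's quasi-likelihood test also called 0 genes, with 657 at an unadjusted p under 0.05, and DESeq2 called 4, with 649 at an unadjusted p under 0.05. The smallest q by limma-voom was 0.415, and for 0 genes (0%) did the values of the groups not overlap. The median 95% interval reached 0.30 on the log2 scale to each side of the estimate, and 9050 genes (89.2%) had an interval that lay within a 2-fold change in either direction. These intervals hold for groups cut from a few Cd36 counts per liver, so they do not bound a difference tied to Cd36 itself. Without the livers of CC006, CC016 and CC068, limma-voom again called 0 genes, with 670 at an unadjusted p under 0.05 and a smallest q of 0.116.

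Among the genes of the droplet surface, Plin2, the perilipin that coats droplets of hepatocytes and is known to follow their fat content, was at 112 to 734 CPM in the high livers with a median of 367. In the low livers it was at 69.5 to 825 CPM with a median of 346. The groups covered nearly the same range, and the log2 difference, high minus low, was 0.13 (95% interval -0.30 to 0.56, q = 0.941 by limma-voom). Plin4, a perilipin of fat cells that is also known from fatty liver, was at 4.51 to 80.5 CPM in the high livers with a median of 10.97, and at 1.91 to 73.5 CPM in the low livers with a median of 13.1. Its log2 difference was -0.51 (95% interval -1.23 to 0.21, q = 0.825 by limma-voom), with the highest values in CC006 of the high and CC015 of the low group. With edgeR it was -0.12 and with DESeq2 -0.09. Cidea, which like Cidec promotes droplet fusion, did not pass the filter on low values. It was at 0 counts in 19 of 47 livers, reached 16.4 CPM in CC006 and was at most 1.08 CPM in the low livers.

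Of the 21 genes listed for the droplet coat and for triglyceride breakdown, 13 were tested besides the scoring genes and 0 were called, with a median log2 difference of -0.04 against 0.00 over all genes. At an unadjusted p under 0.05 stood 1 of the 13, Mgll, which codes for the lipase that splits monoglycerides, at -0.52 (SE 0.25, p = 0.0470, q = 0.718 by limma-voom). Cideb, the CIDE gene typical of hepatocytes, was at 13.8 to 45.1 CPM in the high and 9.57 to 54.3 CPM in the low livers, with a log2 difference of 0.00 (SE 0.11). G0s2, an inhibitor of the main triglyceride lipase, had medians of 29.01 and 44.3 CPM and a log2 difference of -0.40 (SE 0.36). The gene of that lipase, Pnpla2, has 3 transcripts in the files and did not pass the filter on low values, and 10 of the 21 genes have more than 1 named transcript.

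**Figure D3:**
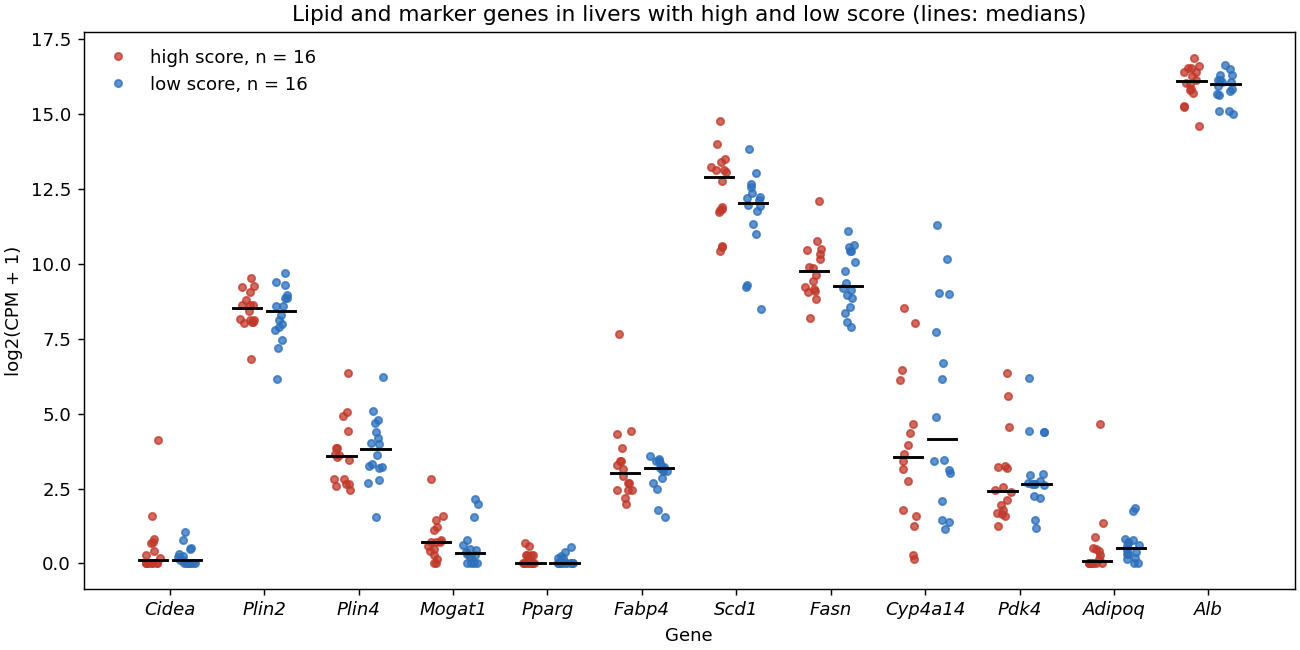
Level of 12 genes as log2(CPM + 1) (vertical axis) in each of the 16 livers ranked high and the 16 ranked low by Cd36. Black lines mark the medians. The values of both groups overlap for every gene, and the separate high points of Cidea, Fabp4 and Adipoq are the liver of CC006.

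Targets of PPAR-gamma that are known to be high in fatty liver showed no shared direction. Of 13 listed genes 6 were tested, 0 were called, and 3 of the 6 had a positive log2 difference, against 50.95% of all genes (median log2 difference -0.08). Fabp4, a fatty acid binding protein of fat cells and macrophages, was at 2.95 to 202 CPM in the high livers with a median of 7.20, and at 1.91 to 10.96 CPM in the low livers with a median of 8.06. The value of 202 CPM was the liver of CC006, and the log2 difference of 0.40 (SE 0.37, q = 0.877 by limma-voom) was 0.15 (SE 0.28) without CC006, CC016 and CC068, and 1.28 with edgeR over all livers. Lpl, the lipoprotein lipase that frees fatty acids from circulating triglyceride, had medians of 38.96 CPM in the high and 24.3 CPM in the low livers, and 5 high livers lay above all low ones. Its log2 difference was 0.69 (95% interval -0.06 to 1.45, q = 0.757 by limma-voom). Mogat1, an enzyme of an alternative route to triglyceride, was at most 6.07 CPM in the high and 3.41 CPM in the low livers and was not tested. Pparg itself was at most 0.587 CPM in the high and 0.446 CPM in the low livers.

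Uptake and activation of fatty acids was represented by 12 tested genes of 17, with 0 called and a median log2 difference of 0.08. Slc27a2 and Slc27a5, the main fatty acid transport proteins of hepatocytes, differed by -0.01 (SE 0.13) and 0.14 (SE 0.13) on the log2 scale. Fabp1, the liver fatty acid binding protein, differed by 0.10 (SE 0.16). Acsl1, which couples fatty acids to coenzyme A, was the 1 gene of the list at an unadjusted p under 0.05, with medians of 6.55 CPM in the high and 10.01 CPM in the low livers and a log2 difference of -0.43 (SE 0.19, p = 0.0321, q = 0.691 by limma-voom).

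Genes that make fatty acids gave no call, with Scd1 and Fasn reaching their highest values in high livers. Scd1, the desaturase that makes oleic acid, was at 1376 to 27630 CPM in the high livers with a median of 7747, and at 356 to 14445 CPM in the low livers with a median of 4210. Only 2 high livers lay above every low one, and the log2 difference was 0.84 (95% interval -0.01 to 1.68, q = 0.732 by limma-voom). Without CC006, CC016 and CC068 it was 0.60 (SE 0.43). Fasn, the fatty acid synthase, was at 288 to 4358 CPM with a median of 860 in the high livers and at 235 to 2203 CPM with a median of 614 in the low livers. Its log2 difference was 0.32 (95% interval -0.21 to 0.85, q = 0.865 by limma-voom), and 0.19 without CC006. The highest liver for Scd1, Fasn, Elovl6 and Acaca within the high group was CC006, the liver with the most adipocyte marker transcripts. Whether fat cells had a part in these values was not tested.

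Over the 17 tested genes of fatty acid synthesis 0 were called, 9 had a positive log2 difference, as had 50.95% of all genes, and the median log2 difference was 0.09. At an unadjusted p under 0.05 stood 1, the citrate carrier Slc25a1, at -0.17 (SE 0.08, p = 0.0296, q = 0.690 by limma-voom). For triglyceride synthesis 14 of 18 genes were tested and 0 were called. Dgat2, the enzyme of the last step that uses newly made fatty acids, had medians of 483 CPM in the high and 590 CPM in the low livers and a log2 difference of -0.06 (SE 0.11). Gpat2 and Dgat1, of the first and last steps of the route, stood at an unadjusted p under 0.05, at -0.63 (SE 0.25, p = 0.0152) and -0.20 (SE 0.10, p = 0.0406), with q of 0.641 and 0.704 by limma-voom. For Gpat2, 6 low livers lay above all high ones.

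Sterol synthesis and uptake gave 23 tested genes, 0 called and a median log2 difference of -0.05. Stard4, a carrier of cholesterol within cells, stood at an unadjusted p under 0.05 at 0.30 (SE 0.14, p = 0.0378, q = 0.700 by limma-voom). Among 10 tested targets of the sterol sensor LXR and LXR itself, 0 were called. Abca1, which exports cholesterol to HDL, had medians of 628 CPM in the high and 556 CPM in the low livers and a log2 difference of 0.18 (SE 0.06, p = 0.00766, q = 0.612 by limma-voom). Apolipoproteins and genes of VLDL assembly, the route by which the liver exports fat, gave 16 tested genes of 16, 0 called and 0 at an unadjusted p under 0.05. Apob, the core protein of VLDL, was at 17823 to 33462 CPM in the high and 9088 to 31966 CPM in the low livers and differed by 0.06 (SE 0.06) on the log2 scale.

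Fatty acid oxidation, ketogenesis and targets of PPAR-alpha, the nuclear receptor that switches on fat burning during fasting, were covered by 33 tested genes of 35. None passed the test: 0 were called by limma-voom, 4 stood at an unadjusted p under 0.05, all lower in the high group (3.95% of all genes did), 7 of 33 had a positive log2 difference (50.95% of all genes did) and the median log2 difference was -0.12. The 4 genes were Ppara at -0.44 (p = 0.0357), Cpt2 at -0.24 (p = 0.0183), the enoyl-CoA isomerase gene Eci2 at -0.65 (p = 0.00394) and the fasting transcription factor gene Creb3l3 at -0.25 (p = 0.0294), with q of 0.612 to 0.695 by limma-voom. Without CC006, CC016 and CC068, Cpt2 and Eci2 stood at an unadjusted p under 0.05 and the list's median was -0.14. Cyp4a14, a fatty acid hydroxylase that responds strongly to PPAR-alpha, was at 0.110 to 370 CPM with a median of 10.7 in the high livers and at 1.22 to 2536 CPM with a median of 19.2 in the low livers. Both groups spanned a wide range, 4 low livers lay above all high ones, and the log2 difference of -1.84 had a 95% interval of -4.16 to 0.48 (q = 0.791 by limma-voom). Pdk4, a kinase that spares glucose during fasting, was at 1.36 to 80.1 CPM in the high and 1.28 to 72.5 CPM in the low livers, with a log2 difference of -0.55 (SE 0.48, q = 0.869 by limma-voom) that took the opposite sign with edgeR and DESeq2. Alb, the gene of serum albumin, differed by 0.08 (SE 0.16, q = 0.960 by limma-voom).

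The remaining lists gave 0 calls as well, and the 27 lists together held 354 genes in the files, of which 273 were tested and 19 (6.96%, against 6.85% of all genes) stood at an unadjusted p under 0.05. Among 12 tested acute-phase genes, 11 had a positive log2 difference, as had 50.95% of all genes. The serum amyloid genes Saa1 and Saa2, which hepatocytes make in inflammation, reached 3471 and 2092 CPM in the high liver of CC004 and at most 104 and 22.4 CPM in the low livers. Their log2 differences were 1.49 (SE 0.67, p = 0.0332) and 1.59 (SE 0.77, p = 0.0473), with q of 0.695 and 0.718 by limma-voom. Saa1 and Saa2 are near-identical copies, so reads they share could be lost or split. Of 10 genes known to be higher in male than in female mouse liver, 3 had a positive log2 difference against 50.95% of all genes, and the largest negative one was that of Cyp7b1, an oxysterol hydroxylase, -0.95 (SE 0.35, q = 0.612 by limma-voom). Cyp7b1 and C6 (-0.55) stood at an unadjusted p under 0.05, both lower in the high group, as did 3.95% of all genes. The median of these 10 genes was -0.32, and -0.19 without CC006, CC016 and CC068, where C6 no longer stood at an unadjusted p under 0.05. The 5 tested genes known to be higher in female liver had a median log2 difference of 0.75, which was 0.19 without CC006, CC016 and CC068.

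The lists of glucose and glycogen (17 tested, median log2 difference -0.02), growth hormone response (9, -0.20), the xenobiotic receptors CAR, PXR and Ah receptor (11, 0.31), the circadian clock (11, -0.06), and endoplasmic reticulum and oxidative stress (9, 0.00) held no gene at an unadjusted p under 0.05. Cyp2b10, the classic target of CAR, reached 97.3 CPM in the high and 68.8 CPM in the low livers and differed by 0.87 (SE 0.73) on the log2 scale. Of 6 tested proliferation genes (median 0.18), Top2a, a topoisomerase of dividing cells, stood at an unadjusted p under 0.05 at 0.70 (SE 0.31, q = 0.690 by limma-voom). Of 12 tested genes of stellate cells and matrix (median -0.20), Reln, a secreted protein of stellate cells, did so at -0.75 (SE 0.29, q = 0.640 by limma-voom).

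Among markers of other cells, Mpeg1, a pore-forming protein of macrophages, had medians of 269 CPM in the high and 135 CPM in the low livers and a log2 difference of 0.80 (SE 0.30, p = 0.0107, q = 0.612 by limma-voom). It was 0.66 (SE 0.31) without CC006, CC016 and CC068. The other 13 tested macrophage markers had unadjusted p of 0.05 or more, and Clec4f, which marks Kupffer cells, differed by 0.09 (SE 0.16). The 6 tested markers of exocrine pancreas all had a negative log2 difference, with a median log2 difference of -2.67 that was -1.55 without CC006, CC016 and CC068. Of them Cela1, an elastase gene, stood at an unadjusted p under 0.05 (log2 difference -0.86, SE 0.29, q = 0.612 by limma-voom). The tested markers of hepatocytes (8, median log2 difference 0.00), endothelial cells (5, -0.13), cholangiocytes (3, -0.27) and red cells (2, 0.30) held none at an unadjusted p under 0.05, and no lymphocyte marker passed the filter. Whether these cells had a part in any difference was not tested.

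**Figure D4:**
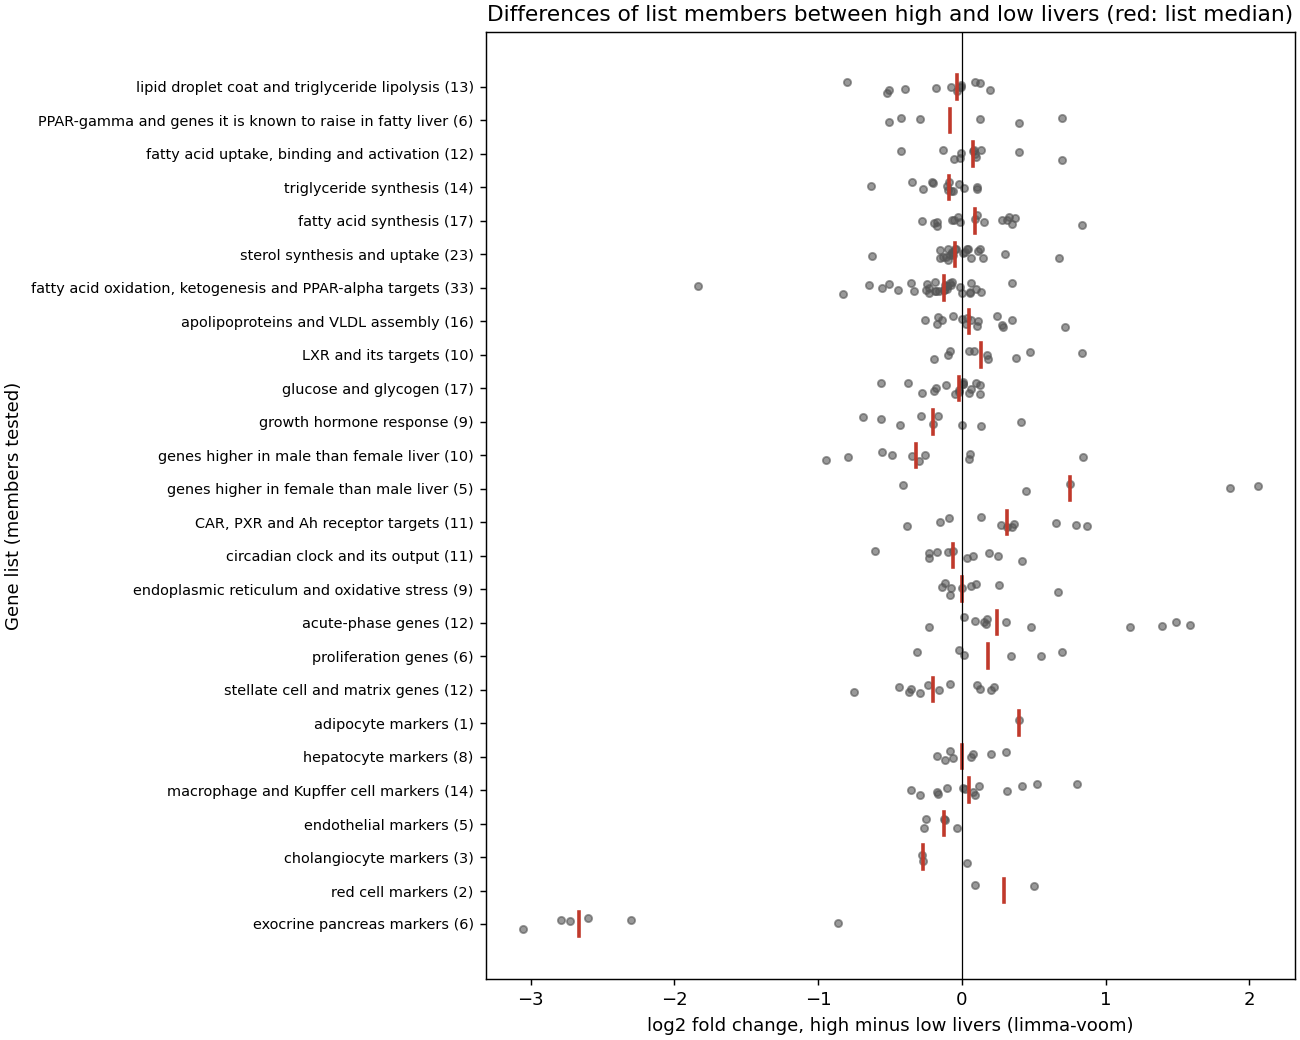
Log2 difference between livers ranked high and low by Cd36 (horizontal axis, limma-voom) of every tested member of 26 gene lists (rows). The number tested is in brackets, and red lines mark the list medians. Most members lie near 0, none passed a q of 0.1, and the pancreas list lies apart at the bottom.

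Since no gene was called, those with the smallest p in liver are named here after their values were seen. The smallest p was that of Ephx2, the soluble epoxide hydrolase that breaks down lipid epoxides, on chromosome 14 (14:66703214-66743337), with medians of 4.08 CPM in the high and 7.82 CPM in the low livers and a log2 difference of -0.89 (SE 0.20, p = 7.92e-05). Ndufs7, a subunit of complex I of the respiratory chain (10:79711866-79719539), was at 24.9 to 54.3 CPM in the high livers with a median of 35.01 and at 24.9 to 70.0 CPM in the low livers with a median of 53.1. Its log2 difference was -0.43 (SE 0.10, p = 9.06e-05). Chchd10, a small protein of the mitochondrial intermembrane space (10:75398318-75400470), had medians of 157 and 230 CPM and a log2 difference of -0.40 (SE 0.09, p = 0.000128). Timm13, a chaperone of import into mitochondria (10:80362195-80363714), had medians of 27.8 and 45.9 CPM and a log2 difference of -0.50 (SE 0.12, p = 0.000312). Ndufs7, Chchd10 and Timm13 lie close together on chromosome 10, so in these strains they may not be separate observations. Whether a shared founder stretch had a part was not tested. On the higher side, Mug2, a protease inhibitor of plasma, had medians of 1014 and 160 CPM and a log2 difference of 2.28 (SE 0.57, p = 0.000329). All 5 had a q of 0.415 by limma-voom, and the ranges of both groups overlapped for each. The 4 genes called by DESeq2, at a q of 0.0858, were Ephx2, Ndufs7, Chchd10 and the class I MHC gene H2-Q1. H2-Q1 was at 0 to 12.6 CPM in the high livers with a median of 2.03, and at 0 to 29.3 CPM in the low livers with a median of 0.397. Its log2 difference with DESeq2 was 2.52, higher in the high group. H2-Q1 and Mug2 belong to families of near-identical genes, so their counts are uncertain, and Ephx2 has 4 transcripts named in the files.

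Kidney and lung of the same mice had no part in the choice of the groups, so Cd36 could be tested there. In kidney Cd36 was at 4.20 to 18.6 CPM (median 5.93) in the mice whose livers ranked high by Cd36. In those whose livers ranked low it was at 1.4999 to 13.8 CPM (median 7.55). The log2 difference was 0.09 with a q of 0.998 by limma-voom, while both the mean and the median CPM were lower in the high group (means 7.23 and 7.43). The sign changed without the mouse of CC040 (-0.00772), with total counts, with 23 against 23 and 12 against 13 mice and with the score as a continuous covariate. In lung the values were 2.60 to 25.1 CPM (median 12.3) and 1.01 to 26.97 CPM (median 11.3), a log2 difference of 0.06 with a q of 0.977, which also changed sign without the mouse of CC039 (-0.0199). The groups overlapped over nearly their whole range in both organs. Counts behind these values were 6 to 193 per kidney and 3 to 147 per lung library. By the authors' TPM, which takes transcript length into account, the 47 livers had a median Cd36 of 0.13, the kidneys of 3.65 and the lungs of 6.53. Cidec stayed near 0 there too, with 0 counts in 35 of 47 kidneys and 29 of 47 lungs and at most 6 and 4 counts, and did not pass the filter on low values.

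**Figure D5:**
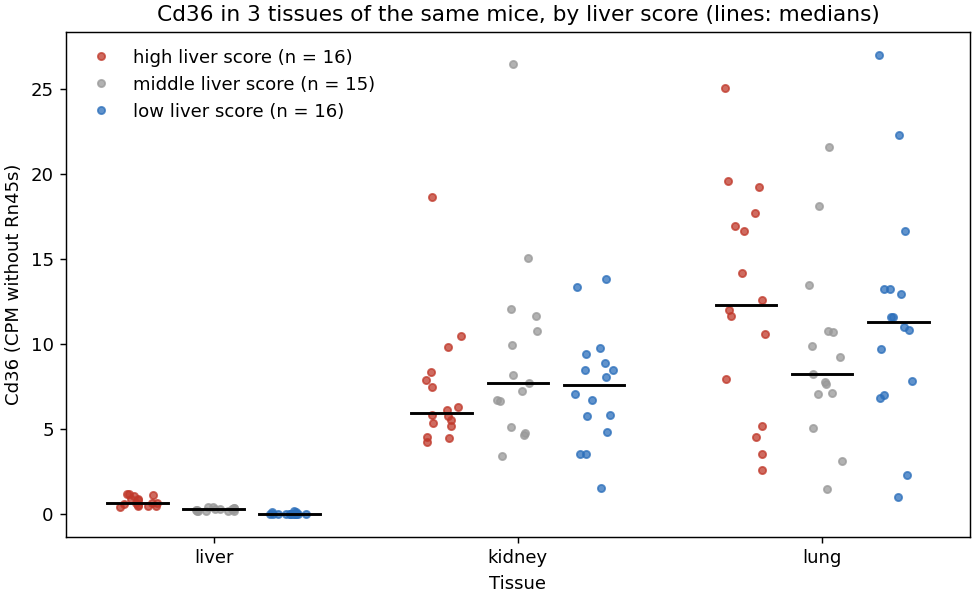
Cd36 in CPM (vertical axis) in liver, kidney and lung (horizontal axis) of each mouse, coloured by the group of its liver, with lines at the medians. The groups are apart in liver because they were cut from these values, and overlap in kidney and lung.

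Across all 47 strains no relation of the liver score to Cd36 in the other organs was detected. Pearson's r was -0.10 with Cd36 in kidney (permutation p = 0.498, Spearman's rho = -0.155, p = 0.295) and 0.141 with Cd36 in lung (permutation p = 0.343, rho = 0.138, p = 0.356). When the 2 strains with the most extreme scores, by distance from the median, were left out, r was -0.0759 and 0.0182. The relations with Cidec in kidney and lung belonged to the same family of 4 but are not given, since Cidec was at 0 counts in most of those libraries. The adjusted p over the 4 relations was 0.798 or more for Pearson's r and 0.712 or more for rho. Each organ had its own library with its own depth, and 13 of the 47 liver scores were at 0. The 0 to 9 counts per liver limit what such a relation could show.

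Over all genes, kidneys of the same mice gave 0 calls of 11852 by limma-voom (0%, with 482 at an unadjusted p under 0.05, 4.07%, of which 260 higher, 2.19%, and 222 lower, 1.87%), and lungs gave 0 of 13334 (0%, with 779, 5.84%, of which 401 higher, 3.01%, and 378 lower, 2.83%). edgeR's quasi-likelihood test gave 0 and 0 (550 and 696 at an unadjusted p under 0.05) and DESeq2 gave 1 and 0 (588 and 765), the kidney gene being Fbn2, a fibrillin of microfibrils. Kidney libraries of the high group held fewer counts without Rn45s, with a median of 4664118 against 6452864 (two-sided permutation test on the means, p = 0.0451). Liver and kidney differences were compared within strain for 9594 genes, and 0 passed the test (0%, with 675 at an unadjusted p under 0.05, 7.04%).

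Between liver and lung the difference of the high and low mice differed for 2 of 9641 genes (0.0207%, with 890 at an unadjusted p under 0.05, 9.23%), Ndufs7 and Timm13. Ndufs7 differed by -0.43 in liver and 0.20 in lung on the log2 scale, and the liver difference was lower by 0.57 in the fit with strain as a block (log2 value -0.57, SE 0.11, q = 0.0874 by limma-voom). Timm13 differed by -0.50 in liver and 0.26 in lung, a gap of -0.70 (SE 0.13, q = 0.0642 by limma-voom). Neither gene's difference within an organ passed its own test by limma-voom, while DESeq2 called Ndufs7 in liver (q = 0.0858). In lung Ndufs7 had medians of 34.4 CPM in the high and 33.8 CPM in the low mice and Timm13 of 22.0 and 18.4 CPM. Both calls were lost when strain was left out of the fit, and Ndufs7 and Timm13 lie close together on chromosome 10.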

How the data were processed

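The authors filtered reads, mapped them with RSEM and STAR 2.5.3a (version from the submitters' processing notes) to strain-specific pseudogenomes of Build37 with RefSeq transcripts, and counted uniquely aligned reads. Each deposited file gives 24423 genes with RSEM's expected counts and with TPM, the authors' level scaled by transcript length. Its FPKM column was not used. Expected counts were rounded (25 values were not whole), Rn45s was left out of totals, and CPM was computed from the rest. No pair of libraries was identical.

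Genes exceeding 1 CPM in no fewer than 30% of a tissue's 47 libraries were tested with limma 3.58.1 (voom, TMM factors of edgeR 4.0.16), q at most 0.1 after Benjamini-Hochberg, in R 4.3.3. The edgeR quasi-likelihood test and DESeq2 1.42.0 were alternatives. Fits were tested on simulated data. Single values were compared with 100000 permutations (scipy 1.17.1). Liver, kidney and lung of a strain come from the same mouse, the pairing used as a block between organs. Deviations from the tissue mean correlated with a median r of 0.241 (liver and kidney) and 0.239 (liver and lung) within a mouse, against -0.0129 and -0.00799 between mice (9372 genes).

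The rule for named genes was the called genes with the largest changes, called members of each list and 12 set genes (Cidea, Plin2, Plin4, Mogat1, Pparg, Fabp4, Scd1, Fasn, Cyp4a14, Pdk4, Adipoq, Alb). No gene was called, so other genes are named as list members at an unadjusted p under 0.05 or after their values were seen. Groups, lists and tests were chosen with earlier results of these data known. None of the 27 lists gave a call in liver.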

Additional observations from a re-analysis of the deposited data

Results flagged for a closer look

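Ndufs7, a complex I subunit, came up because its difference between the high and low groups was not the same in liver and lung. The test of that gap had strain as a block (log2 gap, liver minus lung, -0.57, q = 0.0874 by limma-voom). Timm13, a chaperone of mitochondrial import, came up for the same reason (log2 gap -0.70, q = 0.0642 by limma-voom). Against kidney the gaps were -0.53 (q = 0.623) and -0.51 (q = 0.673) by limma-voom.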

How the results depend on the processing

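Cd36 counts of 0 to 9 per liver limit every comparison here. Outside the settings that leave out 1 mouse, 146 values kept their direction and side of the threshold, 7 changed sign and 6 counts moved. A further 20 could not have changed, since Cd36 alone gives the same ranking and a stricter threshold leaves 0 calls at 0. Over the settings that compare groups, again without those that leave out 1 mouse, the log2 difference in liver ran from 0.04 to 0.17 for Plin2, from -0.79 to -0.09 for Plin4, from 0.06 to 1.28 for Fabp4, from 0.60 to 0.88 for Scd1, from 0.16 to 0.38 for Fasn, from -2.61 to -1.05 for Cyp4a14 and from 0.01 to 0.15 for Alb. Leaving out 1 mouse, it reached 0.23 for Plin2, 0.97 for Scd1 and 0.43 for Fasn. The Pdk4 difference in liver was 0.20 with edgeR and 0.0529 with DESeq2. Cd36 in kidney was -0.0211 with total counts, -0.157 with 23 against 23 livers, -0.0140 with the 12 highest against the 13 livers at 0 and -0.0361 with the score as a continuous covariate, and Cd36 in lung was -0.00610 with the Rn45s share as a covariate. DESeq2 called 4 genes in liver and 1 in kidney, and the kidney fit without the filter called 1, Gm5148, a gene at 0 in every low kidney. In the high kidneys Gm5148 was at 0 to 2.55 CPM with a median of 0.725. That fit had 3142 of 20591 genes at an unadjusted p under 0.05 by limma-voom. Without one of the 32 mice in turn, calls stayed at 0 to 0 in liver, kidney and lung, Cd36 ran from -0.00772 to 0.164 in kidney and from -0.0199 to 0.135 in lung, and Plin2, Plin4, Fabp4, Scd1, Fasn, Cyp4a14, Pdk4 and Alb kept their sign in liver. The other genes named were not refitted in this way. Total counts in place of TMM moved the median of all genes to -0.12 in kidney and 0.16 in lung.

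The fit without strain as a replicate block called 0 genes between liver and lung, against 2 with it, and changed no other call. With q at most 0.01 the count was 0 and with DESeq2 size factors 1 (Timm13). The comparisons of 12 against the 13 livers at 0, without CC006, CC016 and CC068, and with the Rn45s share were added after seeing the data. Not run were Cidec alone as the score, since every liver was at 0, the 12 lowest livers, since 13 were tied, and the group difference of Cidec in kidney and lung, which did not pass the filter.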
